A study of Rattus norvegicus with 12 samples.

Results

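In the paraventricular nucleus (PVN) of rats, 70 of 21914 circular RNAs (circRNAs) were abundant in some libraries and stood at a count of 0 in others of the same kind. They are called on-off circRNAs here. A circRNA was taken when it had a count above 0 in 3 or more of 12 libraries and a count of 0 in 2 or more libraries where 20 or more counts were expected. The expected count was the median level over the libraries that listed the circRNA, in CPM (counts scaled to a library total of 1000000), multiplied by the total of the library in question. In all, 78 circRNAs met these conditions, and 8 of them were left out by a list of identifiers that belonged to the rule. The members were thus chosen by their counts of 0 and their CPM. How many zeros they had and how high they stood are given as descriptions without a test. The group comparisons below test these same counts and CPM. Zeros beside high counts were part of the choice, so the shares of members called are descriptions of this chosen set. The conditions on counts do not use the groups, but the list of 8 was drawn up with earlier results of these data known, and the group tests called more of the set with the 8 included.

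The study asked how electroacupuncture changes the RNA of stress-related brain nuclei after surgery, in male Sprague–Dawley rats bought at 7 weeks of age. The normal controls (NC) were not operated on, and the rats of the HT group lost part of the left liver lobe in a partial hepatectomy under isoflurane. No sham operation or anaesthesia is described for NC, so HT against NC cannot tell the operation from the anaesthesia. The HT+EA group had the same operation, with needles and pulsed current at hind-limb acupoints on the day before and right after it. The HT+SEA group had the operation and the same needles with no current (sham electroacupuncture). No strain or allele differed between groups, all rats were held awake in a restraint device for the same time, and tissue was taken a day after the last treatment. Each group had 3 libraries. The study's methods name 12 rats in 4 groups and say that the brain samples came from 1 batch but from different animals. No source ties a library to a rat, so p-values measure the spread between these libraries.

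A circRNA is a closed loop that forms when the end of an exon is spliced back to the start of an exon upstream of it. It has no free ends, is protected from exonucleases, and many circRNAs accumulate in neurons. A sequenced read belongs to a circRNA when it runs across the back-splice junction, and some circRNAs carry sites for microRNAs. The PVN holds the neurons that release corticotropin-releasing hormone and so start the hormonal stress response of the pituitary and the adrenal gland. The deposited table names circRNAs by running identifiers, with no coordinates, strand, sequence or host gene. The on-off circRNAs are therefore named by identifier, no function is given for any of them, and the tissue could not be checked by marker genes.

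Library totals lay between 134903 and 360524 counts, and their median was 220991. The table held no count of 1, and the smallest count above 0 was 2. A circRNA at 0 may thus have had a stray read or have gone uncalled, and no limit was drawn from a count of 0. Where a whole group stood at 0, its comparison has no fold below. Intervals from counting would cover counting error only, since reads without molecular identifiers are not independent molecules.

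Most circRNAs of this abundance were listed throughout. Of 2394 circRNAs with 20 or more expected counts in 2 or more libraries, 2016 (84.2%) were listed in all 12 libraries, 239 were at 0 with 20 or more expected in exactly 1 library, and the 78 that met the rule made up 3.26%. The 70 on-off circRNAs had a median level of 83.9 to 1581 CPM where they were listed, with a median over members of 160.5 CPM. By this level they ranked from 53 to 2234 in the table. Their counts made up 0.913% to 1.47% of each library, so they were a small share of the back-splice reads of every library.

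The members ranged from circRNAs missing in a few libraries to circRNAs present in a few. Of the 70, 30 were listed in 10 libraries, 6 in 9, 9 in 8, 5 in 7, 5 in 6, 3 in 5, 7 in 4 and 5 in 3. In 15 members the libraries at 0 outnumbered the libraries that listed the circRNA. Of all 840 values (70 circRNAs in 12 libraries), 291 (34.6%) were 0. In 267 of these zeros 20 or more counts were expected, and in 24 fewer were expected. At the edge of the rule, the second largest expected count among the libraries at 0 was 20.8 for novel_circ_0009464, 20.9 for novel_circ_0018245 and 21.2 for novel_circ_0002489. It was 19.9, 19.5 and 18.8 for novel_circ_0011918, novel_circ_0001749 and novel_circ_0028385, which fell just outside.

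**Figure D1:**
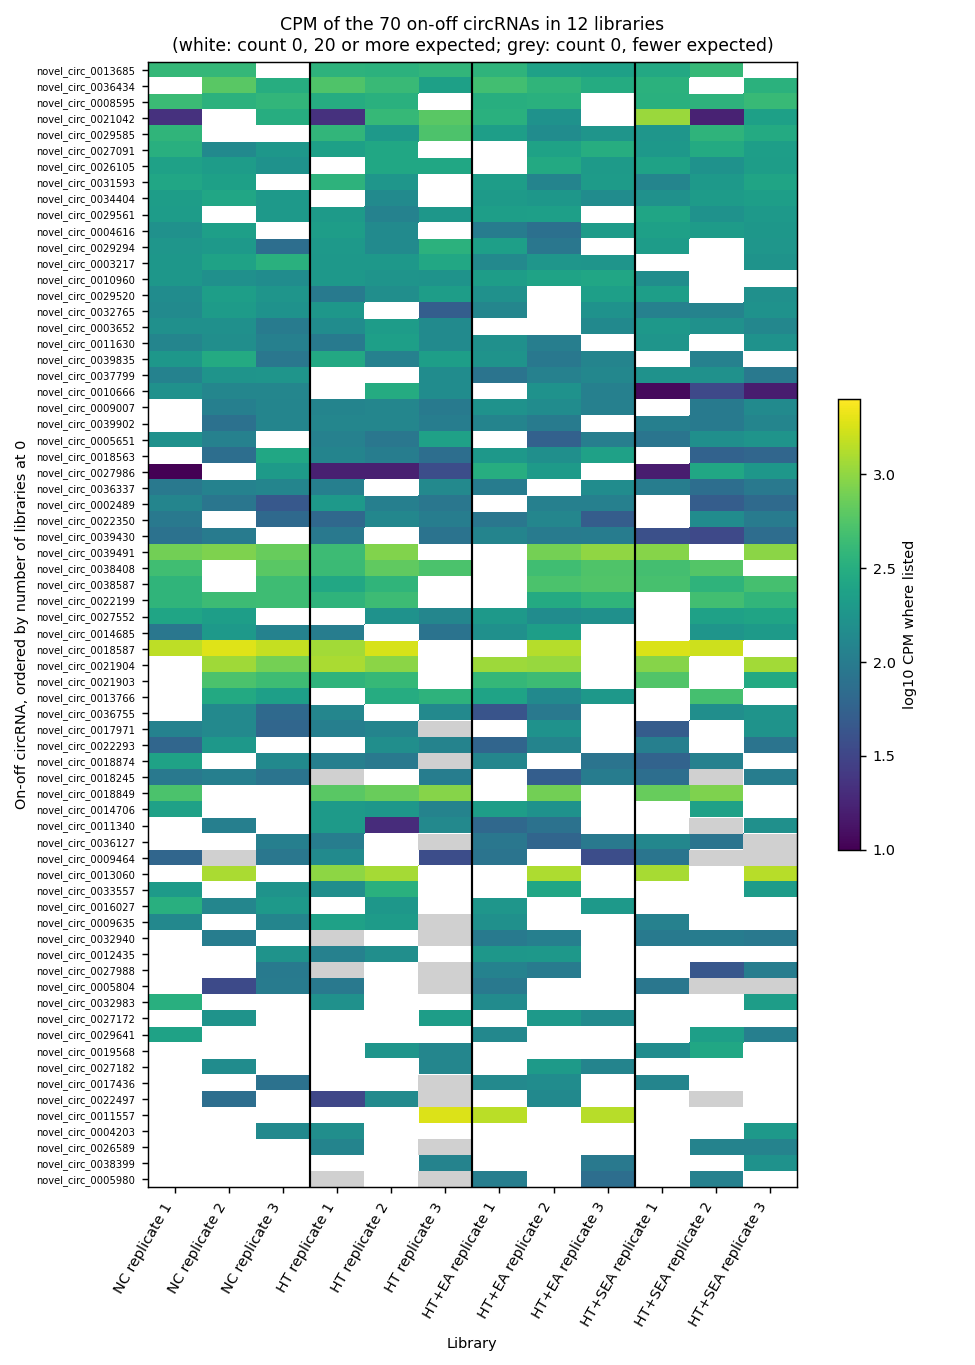
Each line is 1 of the 70 on-off circRNAs and each column 1 of the 12 libraries, with black lines between the groups. Colour gives the log10 CPM where the circRNA was listed, white marks a count of 0 where 20 or more were expected, and grey a count of 0 where fewer were expected. White cells lie in all 4 groups, and no circRNA is white throughout 1 group and coloured in every other library.

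The most abundant member was novel_circ_0018587, with a median of 1581 CPM over 8 libraries. Its counts were 324, 445 and 397 in the 3 NC libraries, 213, 446 and 0 in HT, 0, 486 and 0 in HT+EA, and 473, 290 and 0 in HT+SEA. It was high in all NC libraries and alternated between more than 200 counts and 0 within each operated group. Up to 342 counts were expected where it stood at 0. Over the libraries that listed it the coefficient of variation (CV, the SD over the mean) of its CPM was 16.7%.

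novel_circ_0011557 was the reverse, with 9 of 12 libraries at 0. It had 252 counts in HT replicate 3, 306 in HT+EA replicate 1 and 298 in HT+EA replicate 3. In the other libraries it was at 0, with 514 counts expected in HT+EA replicate 2. Where it was listed its median was 1427 CPM and its CV 17.4%.

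The next 3 members by level showed 0 and high counts inside groups. novel_circ_0013060 had counts of 0, 289 and 0 in NC, 179, 295 and 0 in HT, 0, 460 and 0 in HT+EA and 316, 0 and 270 in HT+SEA, with a median of 1239 CPM and a CV of 11.5% where listed. novel_circ_0039491 had 173, 201 and 182 in NC, 81, 218 and 0 in HT, 0, 287 and 217 in HT+EA and 238, 0 and 187 in HT+SEA, with a median of 872 CPM and a CV of 20.9%. In novel_circ_0021904 the counts were 0, 264 and 204 in NC, 230, 237 and 0 in HT, 240, 390 and 0 in HT+EA and 239, 0 and 224 in HT+SEA. That circRNA had exactly 1 library at 0 in each group, so its groups overlapped from 0 to at least 237 counts.

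**Figure D2:**
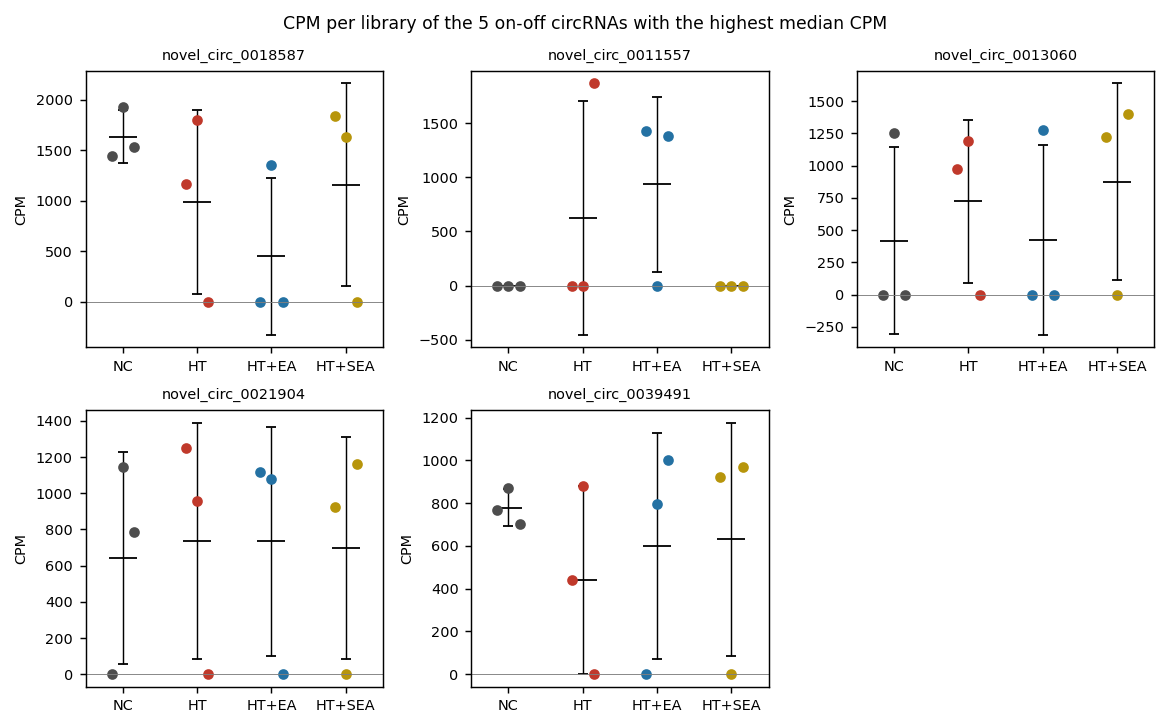
Points are the CPM of single libraries for the 5 on-off circRNAs with the highest median CPM, with the mean as a horizontal bar and the SD (n = 3 libraries) as the vertical line; an SD that passes below 0 has no meaning as a level. In every panel at least 1 group has libraries both at 0 and near its highest level.

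The most zeros of any member were 9, reached by 5 members. Apart from novel_circ_0011557, these were the less abundant novel_circ_0004203, novel_circ_0026589, novel_circ_0038399 and novel_circ_0005980. novel_circ_0004203 had 36 counts in NC replicate 3, 28 in HT replicate 1 and 38 in HT+SEA replicate 3, where its CV was 18.8%. novel_circ_0026589 had 22 counts in HT replicate 1, 21 in HT+SEA replicate 2 and 23 in HT+SEA replicate 3. Its 3 levels were nearly equal, with a CV of 0.668%, while up to 43.0 counts were expected where it stood at 0. novel_circ_0038399 had 16 counts in HT replicate 3, 20 in HT+EA replicate 3 and 32 in HT+SEA replicate 3. novel_circ_0005980 had 23 counts in HT+EA replicate 1, 16 in HT+EA replicate 3 and 20 in HT+SEA replicate 2. Each of the 5 was thus listed in libraries of at least 2 groups, and in none of them did a group hold 3 listing libraries.

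Where they were listed, the on-off circRNAs had a median spread near that of circRNAs never at 0, with a higher upper quartile. The median CV of CPM over listing libraries was 25.9% for the 70 members, with quartiles of 19.2% and 37.5%. For the 1815 circRNAs listed in all 12 libraries in the same range of median CPM it was 23.8%, with quartiles of 18.1% and 30.3%. Few listed values lay between full level and 0. The lowest listed value was at least 50% of the expected count in 54 of 70 members (77.1%) and in 79.1% of the 1815 others, and at least 25% of it in 94.3% of members and 98.1% of the others. The members' values come from 3 to 10 listing libraries and those of the others from 12. The CVs and lowest values thus rest on unlike numbers of values. These shares are descriptions, since the same CPM values set the expected counts.

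**Figure D3:**
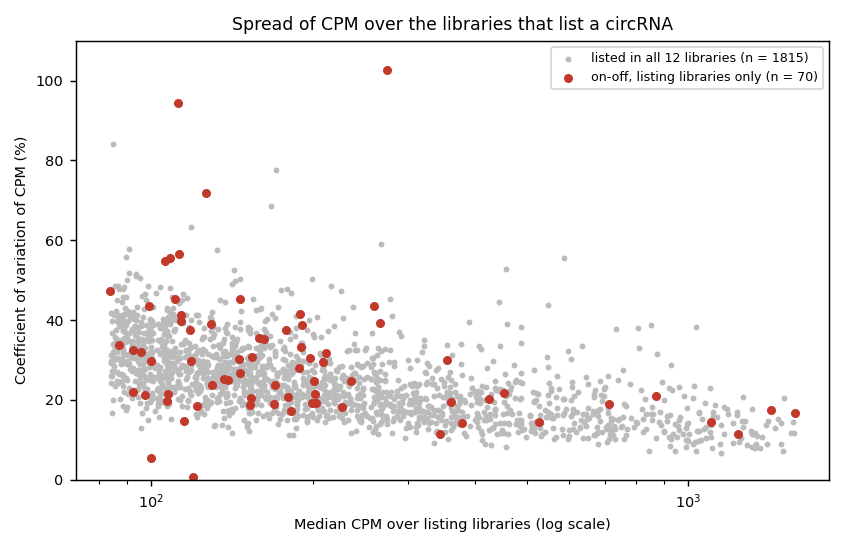
The horizontal axis (log scale) gives the median CPM over the libraries that list a circRNA and the vertical axis the CV of CPM over those libraries, in percent. Grey points are the 1815 circRNAs listed in all 12 libraries within the members' range, and red points are the 70 on-off circRNAs, of which 3 lie above 60%.

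In 4 members, chosen here after their values were seen, some listed values lay far below the full level. They held all 10 of the 549 listed values that lay under 25% of the expected count. The counts of novel_circ_0027986 were 2, 0 and 53 in NC, 3, 4 and 5 in HT, 67, 73 and 0 in HT+EA and 4, 48 and 36 in HT+SEA. The counts of novel_circ_0021042 were 5, 0 and 82 in NC, 4, 100 and 83 in HT, 72, 60 and 0 in HT+EA and 280, 3 and 45 in HT+SEA. Both moved between a few reads and more than 30 within NC and HT+SEA, and their CVs where listed were 94.3% and 103%. novel_circ_0010666, described with the group comparisons, had 2 such low values and novel_circ_0011340 had 1, a count of 5 in HT replicate 2.

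Every library took part. The number of on-off circRNAs at 0 was 25, 25 and 23 in the NC libraries, 19, 22 and 29 in HT, 23, 17 and 31 in HT+EA, and 27, 28 and 22 in HT+SEA. As mean ± SD over 3 libraries this was 24.3 ± 1.15 in NC, 23.3 ± 5.13 in HT, 23.7 ± 7.02 in HT+EA and 25.7 ± 3.21 in HT+SEA, so the groups overlapped. The library with the largest total, HT+EA replicate 2, had the fewest members at 0. The library with most, HT+EA replicate 3, had a total of 216431, close to the median, and the smallest library, HT replicate 3, had 29. Counting only members with 20 or more counts expected in that library, the share at 0 was 24.3% to 46.2%, and the members that were listed stood at a median of 93.6% to 106% of their expected count. The part of library size in the zeros was not tested.

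**Figure D4:**
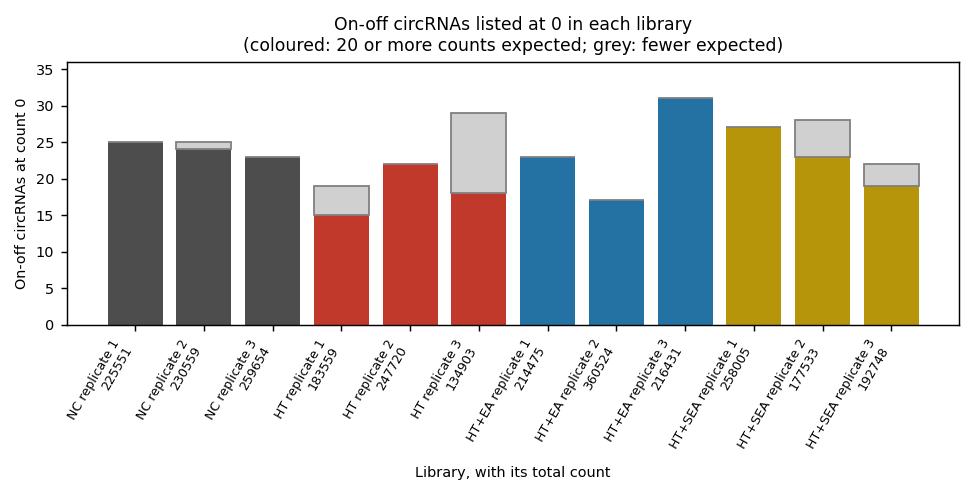
Bars give the number of the 70 on-off circRNAs at a count of 0 in each library, whose total count is printed under its name. The coloured part has 20 or more counts expected and the grey part fewer; the bars run from 17 to 31, and grey parts are largest in HT replicate 3, the smallest library.

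The zeros of the 70 members cut across the groups. In each of the 70 members at least 1 group held both libraries at 0 and libraries that listed the circRNA. No member was at 0 in all 3 libraries of a group and listed in all other libraries. The 8 circRNAs left out by name are not counted here, and that list was drawn up with earlier results of these data known. The zeros lay in 1 group in 7 members, in 2 groups in 23, in 3 groups in 16 and in all 4 groups in 24. All 3 libraries stood at 0 in 5 members for NC, 5 for HT, 3 for HT+EA and 6 for HT+SEA, which were 15 different members. All 3 listed the circRNA in 23 members for NC, 23 for HT, 17 for HT+EA and 20 for HT+SEA.

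Among the 30 members with 2 zeros, 7 had both zeros in the same group and 23 had them in 2 groups. The 7 were named after their values were seen. Both zeros lay in HT for novel_circ_0034404 and novel_circ_0037799, in HT+EA for novel_circ_0003652, in NC for novel_circ_0029585, and in HT+SEA for novel_circ_0003217, novel_circ_0010960 and novel_circ_0039835. In each of them the remaining library of that group listed the circRNA.

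Most members had a pattern of zeros of their own. The 70 circRNAs had 61 different patterns of listed and 0 over the 12 libraries, and 8 patterns were shared, by 17 members in all. Among 2415 pairs of members none was complementary, with 1 circRNA listed exactly where the other was at 0. The rule asked for 3 or more listing libraries, so the 30 members listed in 10 libraries could not be complementary to another member. Most pairs were thus excluded in advance, and nothing is read from their absence. No circRNA of the table within 5 identifiers of a member was complementary to it either.

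Of 4 pairs of members at most 20 identifiers apart, 2 were listed or at 0 together in all 12 libraries. These pairs were chosen after their values were seen. novel_circ_0021903 and novel_circ_0021904 stood side by side in the numbering and were both at 0 in NC replicate 1, HT replicate 3, HT+EA replicate 3 and HT+SEA replicate 2. In the 8 libraries that listed both, the count of novel_circ_0021903 was 0.246 to 0.603 times that of novel_circ_0021904, with a median of 0.418. novel_circ_0027172 and novel_circ_0027182 were both listed in NC replicate 2, HT replicate 3, HT+EA replicate 2 and HT+EA replicate 3, where the ratio of their counts was 0.959 to 1.71. They were both at 0 in the other 8 libraries, which included all of HT+SEA. The other close pairs were not in step, with novel_circ_0027986 and novel_circ_0027988 in the same state in 7 of 12 libraries and novel_circ_0038399 and novel_circ_0038408 in 4. The table gives no coordinates, so whether neighbours in the numbering overlap or share a host gene was not tested.

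For 69 members the circRNAs within 5 identifiers could be summed, with other members left out of the sum. Neighbours that are members themselves, such as novel_circ_0021903 and novel_circ_0021904, thus did not enter for each other. Their summed CPM in the libraries where the member was at 0 was 0.964 times that in the libraries that listed it, as a median over members, with quartiles of 0.812 and 1.14. The ratio lay between 0.5 and 2 in 62 members. The circRNAs numbered beside a member that were not members themselves thus mostly kept their summed level in these libraries at 0.

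The first question of the design, what the operation under anaesthesia changed, was put by HT against NC. All 70 members passed the filter on low counts and were tested with edgeR's quasi-likelihood test among 4838 circRNAs. In this contrast 3 members passed an unadjusted p of 0.05, of which 2 were higher in HT and 1 was lower, or 4.29% of the members against 3.41% of all circRNAs tested. None passed after Benjamini-Hochberg adjustment over all circRNAs, where the smallest adjusted p of a member was 0.997 and 0% of all circRNAs passed. The groups did not overlap in 3 members, 1 higher and 2 lower in HT, against 9.36% of all circRNAs tested.

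The member with the smallest p among those lower in HT was novel_circ_0034404. Its counts were 49, 61 and 52 in NC, 0, 35 and 0 in HT, 44, 67 and 32 in HT+EA, and 42, 37 and 43 in HT+SEA. All 9 libraries outside HT listed it at similar CPM, 227 ± 33.3 in NC, 180 ± 29.2 in HT+EA and 198 ± 31.4 in HT+SEA, and HT had 2 libraries at 0 and 1 below all others. The edgeR log2 fold change of HT against NC was -2.07 (SE 0.784, adjusted p = 0.997). The values against HT were 1.73 (SE 0.787, adjusted p = 0.999) for HT+EA and 1.85 (SE 0.792, adjusted p = 0.999) for HT+SEA. These 3 comparisons share the HT libraries. Without HT replicate 2, the one HT library that listed it, all 3 passed, with adjusted p of 0.000587, 0.00116 and 0.000952 in edgeR, but the HT group then held only the 2 libraries at 0.

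The member with the smallest p among those higher in HT was novel_circ_0019568. It was at 0 in all NC and all HT+EA libraries, with counts of 0, 44 and 17 in HT and 38, 48 and 0 in HT+SEA. The libraries that listed it belonged to HT and HT+SEA, but each of these groups also had a library at 0. It had the smallest p of all members in 3 comparisons, namely HT against NC (edgeR adjusted p = 0.997), HT+EA against HT (adjusted p = 0.999) and HT+EA against HT+SEA (adjusted p = 0.9998). No fold is given, since a whole group was at 0 in each of these comparisons.

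The second question, what electroacupuncture changed after the operation, was put by HT+EA against HT. At unadjusted p below 0.05 there were 5 members, 4 higher and 1 lower in HT+EA, which was 7.14% of the members against 4.77% of all circRNAs tested. None passed after adjustment, again with 0% of all circRNAs. Groups without overlap were found in 6 members, 4 higher and 2 lower in HT+EA, against 11.3% of all circRNAs tested. The smallest p among the higher members belonged to novel_circ_0032940, with counts of 0, 24 and 0 in NC, 0, 0 and 0 in HT, 21, 39 and 0 in HT+EA, and 25, 18 and 18 in HT+SEA. It was at 0 in all HT libraries, where 18.3, 24.7 and 13.4 counts were expected. All HT+SEA libraries listed it, with NC and HT+EA in between, and its edgeR adjusted p was 0.999 against HT for both treated groups.

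The same set was compared for needles without current, HT+SEA against HT. At unadjusted p below 0.05 there were 8 members, 2 higher and 6 lower in HT+SEA, which was 11.4% of the members against 3.29% of all circRNAs tested. None passed after adjustment, and 0% of all circRNAs did. Of the 8 members whose groups did not overlap, 3 were higher and 5 lower in HT+SEA, against 9.53% of all circRNAs tested. In novel_circ_0039835, which had the smallest p among the lower members, the counts were 52, 28 and 30 in HT and 0, 20 and 0 in HT+SEA. They were 42, 67 and 23 in NC and 37, 33 and 26 in HT+EA. The highest HT+SEA library, at 112.7 CPM, was just below the lowest HT library, at 113.0 CPM. It was above the lowest NC library (88.6 CPM) and the lowest HT+EA library (91.5 CPM). The log2 fold change of HT+SEA against HT was -2.54 (SE 0.948, edgeR adjusted p = 0.999).

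The effect of the current itself was addressed by HT+EA against HT+SEA. At unadjusted p below 0.05 there were 9 members, 7 higher and 2 lower in HT+EA, which was 12.9% of the members against 3.89% of all circRNAs tested. None passed after adjustment, with 0% of all circRNAs. Groups without overlap were found in 4 members, 3 higher and 1 lower in HT+EA, against 11.8% of all circRNAs tested. The smallest p among the higher members was that of novel_circ_0016027, with counts of 74, 29 and 51 in NC, 0, 46 and 0 in HT, 39, 0 and 42 in HT+EA and 0, 0 and 0 in HT+SEA. It was listed in every NC library and in no HT+SEA library, with HT and HT+EA mixed, and the edgeR adjusted p of HT+EA against HT+SEA was 0.9998. Of the 9 members, 7 were at 0 in a whole group of the comparison.

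When all 4 groups were tested at once for a difference, 4 members had an unadjusted p below 0.05, which was 5.71% of the members against 2.48% of all circRNAs tested. They were novel_circ_0011557, novel_circ_0016027, novel_circ_0019568 and novel_circ_0026589, each at 0 in at least 1 whole group, and none passed after adjustment. The biological coefficient of variation in edgeR, its measure of spread within groups, was 66.7% to 252% in the members with a median of 131%, and had a median of 29.2% in all other circRNAs tested. The rule took circRNAs with zeros beside high counts, so a large spread is part of the choice and nothing is read from it.

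The count of calls changed with the filter on low counts. Without it, all 21914 circRNAs entered, the median biological coefficient of variation of the members was 34.7%, and 29 of the 70 members passed at adjusted p below 0.05 in at least 1 of the 5 edgeR tests, against 0.356% of all circRNAs. The tested set, the estimated spread and the adjustment changed together, and which of them moved the calls was not tested. With the filter, edgeR, DESeq2 and limma-voom passed 0 members after adjustment, and DESeq2 had 1 to 3 members at unadjusted p below 0.05 in each test, against 1.57% to 2.96% of all circRNAs.

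A separate comparison asked whether the level differed between groups in the libraries that listed a member. Counts of 0 were treated as missing and log2 CPM was tested with limma, which could be done for 54 to 56 of the 70 members. At unadjusted p below 0.05 there were 2 members in HT against NC (5.51% of all circRNAs tested), 7 in HT+EA against HT (6.45% of all), 8 in HT+SEA against HT (4.47% of all) and 6 in HT+EA against HT+SEA (5.18% of all). After Benjamini-Hochberg adjustment over all circRNAs 1 member passed in each of the last 2 comparisons and none in the others. It was novel_circ_0010666 both times, named after its values were seen, and it was also the 1 circRNA of the whole table to pass there, or 0.0208% of those tested.

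novel_circ_0010666 was low in all libraries of the sham group. Its counts were 37, 29 and 33 in NC, 0, 74 and 20 in HT, 0, 60 and 24 in HT+EA, and 3, 6 and 3 in HT+SEA. In CPM, NC stood at 139 ± 21.7 and HT+SEA at 20.3 ± 11.8 (SD, n = 3), and every listing library of the other groups was above every HT+SEA library. The log2 level of HT+SEA was lower than that of HT by the fitted difference of -3.34 (SE 0.449, limma adjusted p = 0.000624), with HT replicate 1 dropped because it was at 0. That of HT+EA was higher than that of HT+SEA by 2.75 (SE 0.449, limma adjusted p = 0.0138), with HT+EA replicate 1 dropped. These comparisons share the HT+SEA libraries. With the zeros kept as counts, edgeR gave -2.92 (SE 1.21, adjusted p = 0.999) and 2.28 (SE 1.22, adjusted p = 0.9998), and HT and HT+EA then overlapped with HT+SEA. The limma call was lost without HT replicate 2 for HT+SEA against HT (adjusted p = 0.0727), and for HT+EA against HT+SEA without HT+EA replicate 2 (adjusted p = 0.851) or HT+EA replicate 3 (adjusted p = 0.173).

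Among the members that listed at very low counts, novel_circ_0027986 had the smallest p of HT+EA against HT by level where listed. Its 3 HT libraries held 3 to 5 counts, while 2 HT+EA libraries held 67 and 73 and the other was at 0. The difference in log2 level was 3.42 (SE 0.918) with a limma adjusted p of 0.583, so it did not pass. novel_circ_0018563, also named after its values were seen, had counts of 0, 17 and 70 in NC, 22, 26 and 10 in HT, 41, 56 and 51 in HT+EA and 0, 10 and 12 in HT+SEA. All HT+EA libraries were above all HT and HT+SEA libraries, and where listed HT+EA exceeded HT+SEA by 1.67 on the log2 scale (SE 0.430, limma adjusted p = 0.443).

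**Figure D5:**
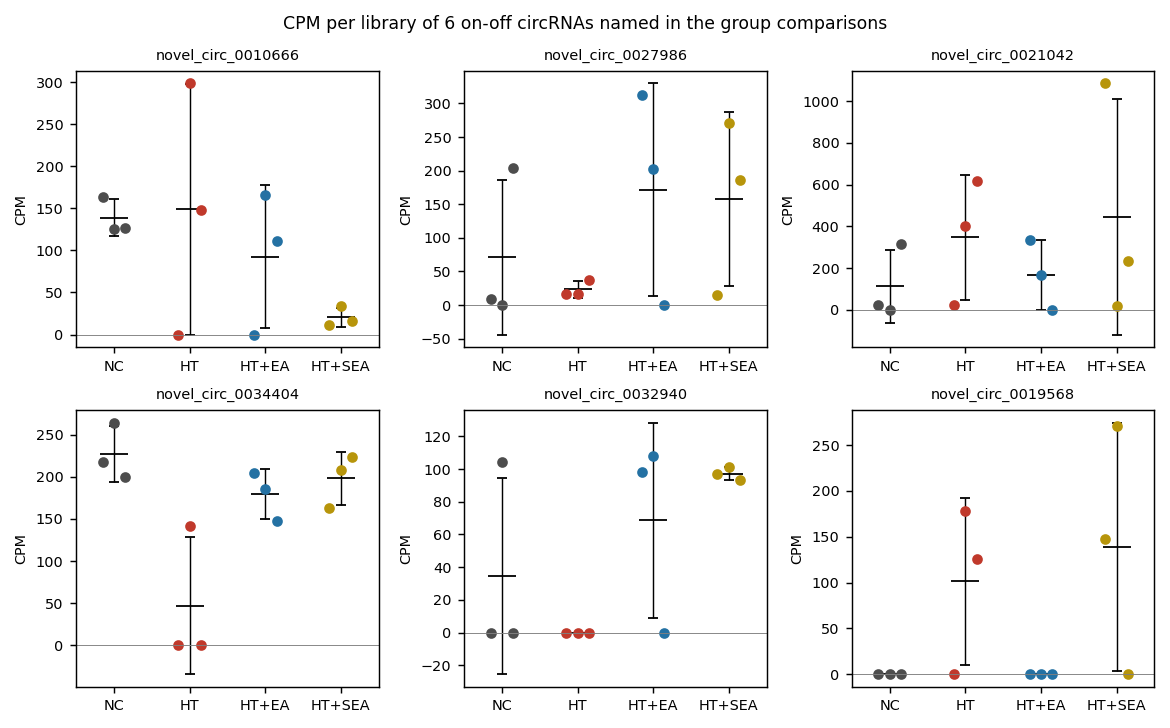
Points are the CPM of single libraries for 6 on-off circRNAs described with the group comparisons, with the mean as a horizontal bar and the SD (n = 3 libraries) as the vertical line; an SD that passes below 0 has no meaning as a level. The 3 HT+SEA libraries of novel_circ_0010666 lie low at 20.3 ± 11.8 CPM, novel_circ_0034404 has 2 HT libraries at 0, and novel_circ_0019568 is at 0 in all NC and HT+EA libraries.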

How the data were processed

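RNA of 12 PVN libraries was sequenced by the authors from strand-specific libraries on Illumina HiSeq instruments. The study's methods name mRatBN7.2, a rat assembly, for read mapping, while the submitters' processing notes name HISAT2 and featureCounts with the human builds GRCh38 and hg38. No coordinates were used here, but the counts themselves depend on read mapping. Which assembly gave them could not be settled, and its part in the counts was not tested. The design text names mouse and the labels name rat. Which program called circRNAs, and from how many reads, is not given in the sources used here. Raw read counts per circRNA were deposited for each library on its own and were not normalised. Whether tissue of several rats went into a library is not stated in the sources used here. A further 12 columns of the table were left aside, because not all of their names could be matched to a label.

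Groups came from the labels. Counts were tested with edgeR 4.0.16 (R 4.3.3; glmQLFit and glmQLFTest, TMM, 4 groups in 1 fit, filterByExpr with min.count 10 and min.total.count 15), two-sided, with Benjamini-Hochberg adjustment over 4838 circRNAs. Standard errors were derived from the F statistics. Levels in listing libraries were tested with limma 3.58.1 on log2 CPM (prior count 0.5, mean-variance trend, 0 as missing). DESeq2 1.42.0, limma-voom, other scalings and filters, a replicate block and the omission of each library were alternatives. Library pairs within groups differed beyond sampling noise (chi-square over degrees of freedom 1.86 to 3.77), and none was a copy.

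The members and all rules were chosen with earlier results of these data known. Members were named when among the 5 with the highest CPM, the 3 with most zeros (ties by higher CPM) or the 3 on each side of the threshold, or when they had the smallest p in a direction of a pairwise comparison. The rule also provided for members at 0 in a whole group and listed in all other libraries, for complementary neighbours in the numbering and for circRNAs of the study's network, and it found none. The other 2 members tied for most zeros, and members said in the report to be so, were named after their values were seen.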

Additional observations from a re-analysis of the deposited data

Results flagged for a closer look

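One result differed between the treated groups by a direct test. The level of novel_circ_0010666 in the libraries that listed it was higher in HT+EA than in HT+SEA by 2.75 on the log2 scale (SE 0.449, limma adjusted p = 0.0138, counts of 0, 60 and 24 against 3, 6 and 3). With the library at 0 kept, edgeR gave 2.28 (SE 1.22, adjusted p = 0.9998). Over the limma value and 15 alternatives of it, the adjusted p ran from 0.00121 to 0.851 and passed in 14 of 16. All 16 settings left out the counts of 0. The call was lost without HT+EA replicate 2 or without HT+EA replicate 3, the HT+EA libraries that listed it. Alternatives without an NC or HT library kept every library of HT+EA and HT+SEA.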

How the results depend on the processing

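Requiring 10 or 40 expected counts in place of 20 gave 171 or 26 on-off circRNAs, and leaving out a library gave 59 to 65. Unadjusted calls are given in the order in which the report takes the 4 pairwise comparisons, followed by the test of all groups at once. With edgeR they were 3, 5, 8, 9 and 4. They were 25, 31, 31, 27 and 43 without the filter on low counts, where 2.31% to 3.02% of all circRNAs were called, and 1, 2, 3, 1 and 1 with DESeq2 (1.57% to 2.96%). A fit of only the groups compared tested 53 to 56 members and called 0, 2, 1 and 2 (2.07%, 4.37%, 3.3% and 5.14% of all circRNAs). limma-voom gave 7 for all groups at once (4.46% of all). Adding back the 8 circRNAs that were left out gave 7, 10, 10, 12 and 7 of 78. The edgeR fit stayed the same, with 3.41%, 4.77%, 3.29%, 3.89% and 2.48% of all circRNAs called. Leaving out a library gave 3 to 6, 3 to 8, 4 to 10, 6 to 10 and 2 to 6. All circRNAs tested then numbered 5373 to 5554. Of these, 161 to 274, 181 to 324, 145 to 257, 157 to 212 and 91 to 179 were called. After adjustment over all circRNAs, 29 members passed in some test without the filter and 0 with it. Leaving out a library gave 0 to 1 member, with 1 when the missing library was replicate 1 of NC, replicate 2 or 3 of HT, replicate 3 of HT+EA, or replicate 1 or 3 of HT+SEA. By level in the listing libraries, leaving out a library gave 1 to 5, 4 to 12, 5 to 12 and 4 to 8 members in the pairwise comparisons. There 50 to 56 members were tested among 5283 to 5499 circRNAs. Of all circRNAs, 234 to 355, 254 to 436, 217 to 326 and 217 to 313 were called. The causes of these shifts were not tested.

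No pairing of the libraries by replicate number was seen, though a weak pairing could be missed by this measure. Deviations from the group mean correlated at -0.0726 to 0.0717 between libraries of the same number, and 2 of 12 libraries correlated best with their own number. With a replicate block edgeR gave 4, 4, 7, 7 and 3 members (2.81%, 4.11%, 2.83%, 3.37% and 1.8% of all) and 0 after adjustment. The level in listing libraries then gave 4 members for HT+SEA against HT in place of 8 (4.29% of all). For HT+EA against HT+SEA it gave 9 in place of 6 (5.18% of all). It stayed at 2 for HT against NC and 7 for HT+EA against HT (5.58% and 6.16% of all). The folds of novel_circ_0034404 in HT against NC and of novel_circ_0039835 in HT+SEA against HT, and both level differences of novel_circ_0010666, kept their direction under every alternative run for them. The direction of the other printed folds was not compared across alternatives. Near the threshold a zero stands against about 20 expected counts.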
